A study of Mus musculus with 7 samples.

Results

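Transcripts of 10 receptor genes whose products signal through the ubiquitin ligase TRAF6 were measured in isolated mouse pancreatic islets. The genes were the Toll-like receptor genes Tlr2, Tlr3, Tlr4, Tlr5 and Tlr9, the interleukin-1 (IL-1) receptor family genes Il1r1, Il1rap and Il18r1, and the tumour necrosis factor (TNF) receptor family genes Cd40 and Tnfrsf11a. They were chosen by symbol, as 10 of the 55487 rows of the deposited count table, and each symbol matched 1 row. There were 3 islet libraries labelled Traf6 KO, from a knockout that the series describes as specific to beta cells, and 4 labelled Control. Mice of both genotypes ate a 60% high-fat diet during 15 weeks, and their islets were kept in culture medium for 24 hours after isolation. No label names the Cre driver, the alleles of the Control mice, or the age and sex of the animals. The comparison asked whether the transcripts of these receptors differed in islets when TRAF6, the enzyme below them, was missing from beta cells.

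Toll-like receptors recognise microbial molecules and products of damaged cells, and IL-1 family receptors bind the cytokines IL-1, IL-18 and their relatives. Both families carry a cytoplasmic TIR domain that recruits the adaptor MyD88 and IRAK kinases, which then engage TRAF6 and lead to NF-kB, while TLR3 signals through the adaptor TRIF. CD40 and RANK, the product of Tnfrsf11a, have no TIR domain and bind TRAF proteins through their cytoplasmic tails. Pancreatic islets hold resident macrophages and vessels beside endocrine cells, and IL-1 signalling to islet cells has been widely studied as a cause of impaired insulin secretion.

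The libraries held 22104256 to 29917292 counts. Traf6 itself was counted over the whole gene and had 14.8, 15.4 and 14.5 CPM (counts per 1e6 counts after TMM scaling) in Traf6 KO 1 to 3, against 17.9, 25.5 and 22.1 CPM in Control 1 to 3, with 12.7 CPM in the library labelled Control 4, the lowest of the 7. By edgeR, Traf6 had a log2 fold change of -0.40 ± 0.22 (SE) and an adjusted p of 0.416. Control 1 to 3 all lay above every Traf6 KO library, so the groups overlapped only through the library labelled Control 4. Without that library the Traf6 log2 fold change was -0.55 (edgeR adjusted p = 0.339). Whether the label of that library is right was not tested. The library is counted as Control in all comparisons that follow. In bulk islets, a lower share of a cell type and less RNA per cell cannot be told apart. Beta-cell identity was plain in each library, with Ins2 at 65117 to 86702 CPM in Traf6 KO and 101943 to 124911 CPM in Control. The summed level of 10 beta-cell markers was 89688 to 116030 CPM in Traf6 KO and 155956 to 190087 CPM in Control. In 5 of these 10 markers all Traf6 KO values lay below all Control values, which was so in 8.68% of all tested genes. By edgeR, 0 of the 10 had an adjusted p under 0.05. In the library labelled Control 4, Ins2 was at 119314 CPM and the summed level at 156336 CPM, both above every Traf6 KO library. Ins1 in that library was at 20911 CPM, between 10842 to 14731 CPM in Traf6 KO and 36488 to 44548 CPM in Control 1 to 3. The 18 acinar markers made up 43.7%, 34.4% and 1.3% of counts in Traf6 KO 1 to 3, against 15.6%, 0.388% and 0.374% in Control 1 to 3, with 2.6% in the library labelled Control 4. The 14 macrophage and myeloid markers, none of them at 0 in all libraries, summed to 263, 154 and 192 CPM in Traf6 KO 1 to 3, against 253, 189 and 182 CPM in Control 1 to 3, with 559.6 CPM in the library labelled Control 4. Of those 14 markers, 12 had their highest value in the library labelled Control 4, beside 17% of all tested genes. The 12 lymphocyte markers summed to 78.9, 34.9 and 451 CPM in Traf6 KO 1 to 3, against 12.3, 12.6, 75.9 and 66.6 CPM in the libraries labelled Control 1 to 4.

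Windows upstream of annotated transcription starts are shown for the members on which the results below turn, as the sequence next to which these transcripts start. Il1r1 has 2 annotated starts and the highest level of the set, Tlr2 has the next highest, Il1rap is the member whose libraries separated by genotype, and Tlr9 had the largest fold change among the 8 members that passed the low-count filter. RefSeq (GRCm38.p6) gave windows for 8 of the 10 members, and for Tlr4 and Cd40 it gave none. The windows run 5′ to 3′ on the gene's strand and end before the first annotated exon base, so that of Tlr2 is short (91 bases). Capitals mark matches on either strand to the GC box GGGCGG, to an NF-kB-type motif (GGGA, then 4 bases of any kind, then CC) or to GAGGAA, the core of sites for PU.1, a transcription factor of myeloid and B cells.
Il1r1, first start, chr1:40224830-40225079, plus strand: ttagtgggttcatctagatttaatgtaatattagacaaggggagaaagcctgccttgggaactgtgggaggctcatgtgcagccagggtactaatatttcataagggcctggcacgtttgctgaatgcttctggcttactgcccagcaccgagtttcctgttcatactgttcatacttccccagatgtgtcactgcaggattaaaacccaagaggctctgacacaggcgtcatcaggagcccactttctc
Il1r1, later start, chr1:40266336-40266585, plus strand: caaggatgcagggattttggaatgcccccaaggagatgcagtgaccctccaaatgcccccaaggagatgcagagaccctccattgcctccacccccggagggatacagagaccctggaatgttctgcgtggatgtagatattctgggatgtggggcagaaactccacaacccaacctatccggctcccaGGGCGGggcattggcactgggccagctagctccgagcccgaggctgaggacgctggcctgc
Il1rap, chr16:26581455-26581703, plus strand: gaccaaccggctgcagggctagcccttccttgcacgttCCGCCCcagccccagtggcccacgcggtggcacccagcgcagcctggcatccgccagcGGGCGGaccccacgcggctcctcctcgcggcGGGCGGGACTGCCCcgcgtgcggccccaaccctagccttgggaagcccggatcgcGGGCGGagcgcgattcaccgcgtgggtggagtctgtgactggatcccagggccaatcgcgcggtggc
Tlr2, chr3:83841768-83841858, minus strand: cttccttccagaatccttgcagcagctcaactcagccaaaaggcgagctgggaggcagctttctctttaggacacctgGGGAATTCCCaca
Tlr9, chr9:106222348-106222597, plus strand: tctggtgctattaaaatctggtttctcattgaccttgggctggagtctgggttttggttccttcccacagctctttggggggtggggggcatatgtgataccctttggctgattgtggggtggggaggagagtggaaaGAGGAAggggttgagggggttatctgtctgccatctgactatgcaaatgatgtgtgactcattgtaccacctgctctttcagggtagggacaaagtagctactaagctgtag
The Il1rap window held 4 GC boxes and 1 NF-kB-type match, and 2 of its bases were shared between both motifs. The Tlr2 window held 1 NF-kB-type match, the Tlr9 window 1 GAGGAA, the later Il1r1 window 1 GC box and the first Il1r1 window none of the 3 motifs. The full 250 bases before the Tlr2 start, part of which is annotated exon, held 2 GC boxes as well. Among 32851 promoter windows of 250 bases, 32.7% held the GC box, 17.6% the NF-kB-type motif and 23.3% GAGGAA. A match is a stretch of letters only, and whether a factor bound there was not measured.

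Il1r1, the signalling receptor chain for IL-1, was by far the most abundant of the 10 transcripts. Levels between genes were compared per length, as CPM per kb of exon (all annotated exons of a gene joined). Il1r1 averaged 48.8 ± 14 CPM per kb over the 7 libraries (SD) and made up 78.6% to 88.8% of the summed level of the 10 receptors. Tlr2, which senses bacterial lipoproteins, followed at 5.40 ± 0.833 CPM per kb. Il1r1 stood first and Tlr2 second in 7 of 7 libraries. Below them lay Tlr3, a sensor of double-stranded RNA, at 0.906 ± 0.147 CPM per kb, and Tnfrsf11a at 0.853 ± 0.252 CPM per kb. These neighbours did not differ beyond their spread, and Tlr3 was the higher in 4 of 7 libraries. Cd40 (0.406 ± 0.162 CPM per kb) and Il1rap (0.367 ± 0.068 CPM per kb) came next and also overlapped, with Cd40 the higher in 4 of 7 libraries. The least abundant were Tlr9 (0.205 ± 0.118), Tlr4 (0.099 ± 0.077), Il18r1 (0.079 ± 0.080) and Tlr5 (0.027 ± 0.024 CPM per kb), whose ranges overlapped from each to the next. When a gene's level was taken per median length of its protein-coding transcripts, an alternative chosen after the data were seen, the first 3 places were the same, Tnfrsf11a stood in place 6 instead of 4, and Cd40 and Il1rap each stood 1 place higher.

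**Figure D1:**
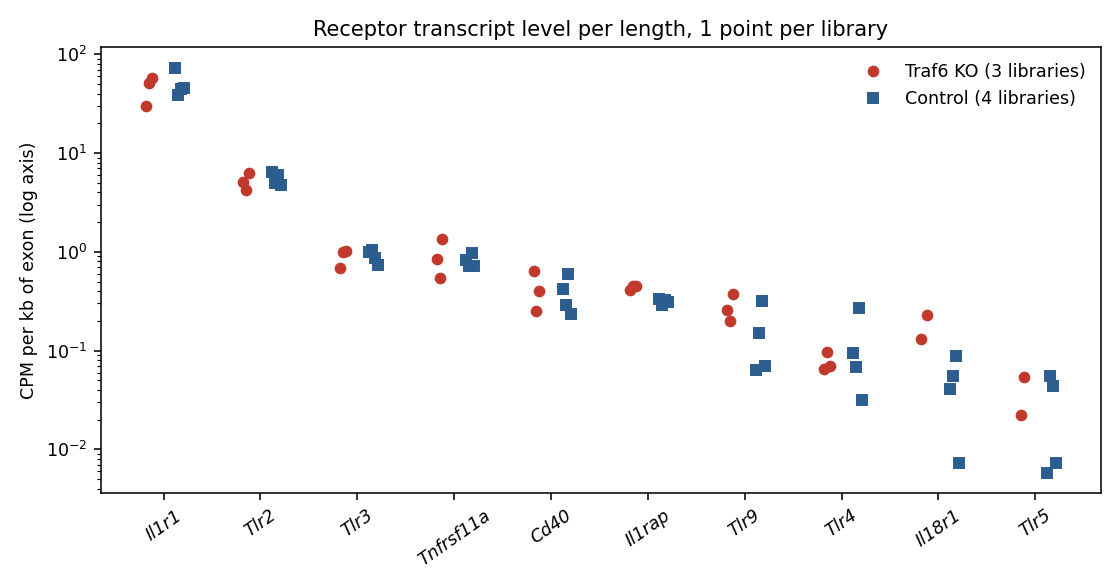
Transcript level of the 10 receptors in CPM per kb of exon on a log axis, 1 point per library (red circles Traf6 KO, blue squares Control), ordered by the mean over libraries. Libraries at 0 counts (Tlr5 in Traf6 KO 1, Il18r1 in Traf6 KO 2) have no point. Il1r1 stood above all others in every library, and both genotypes overlapped for each receptor except Il1rap.

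None of the receptors passed the test between genotypes. Of the 10 members, 8 passed the filter on low counts and 2, Tlr5 and Il18r1, did not. Among the 8 tested, 0 had an edgeR adjusted p under 0.05, where 0% of all 16203 tested genes passed. At an unadjusted p under 0.05, the count was 1 member, against 16% of all genes. That member lay higher in Traf6 KO, and 0 members were at such a p and lower there, beside 7.17% of all genes. In 1 member, Il1rap, all Traf6 KO values exceeded all Control values, which was so in 5.58% of all genes. In 0 members were all Traf6 KO values under all Control values, which was so in 8.68% of all genes. Of the 8 log2 fold changes of Traf6 KO over Control, 4 lay above 0 and 4 below, with a median of 0.06, beside a median of 0.01 over all genes tested. With the DESeq2 Wald test, which gave no adjusted p for Tlr4 and Tlr9, and with limma-voom, with and without sample quality weights, 0 members were called as well. Over all genes these tools called 4.59% (DESeq2), 0% (limma-voom) and 6.46% (limma-voom with quality weights).

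**Figure D2:**
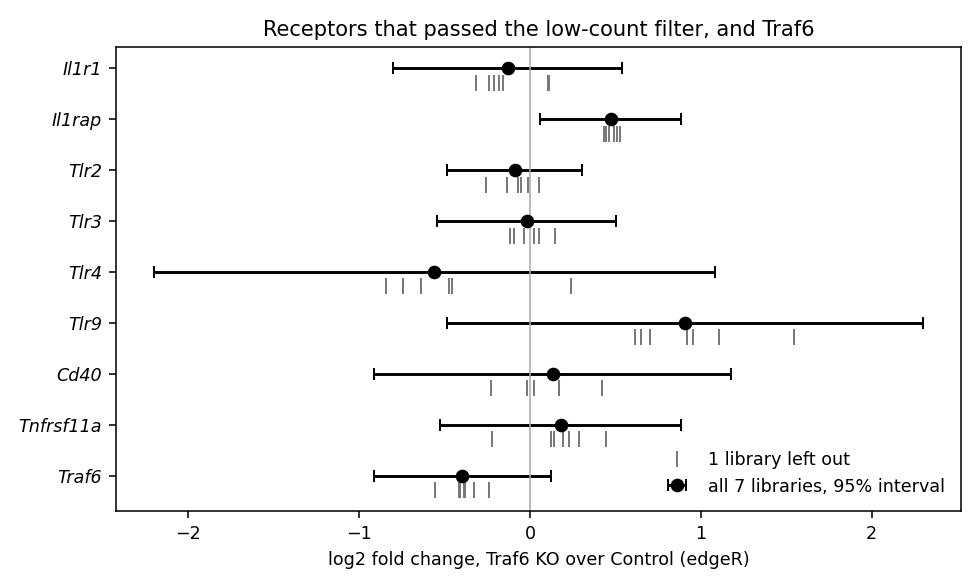
Log2 fold change of Traf6 KO over Control by edgeR for the 8 tested receptors and Traf6 (black points, all 7 libraries, with 95% intervals), and the same value with each library left out in turn (grey ticks). The interval of Il1rap, 0.06 to 0.89 before any adjustment for the number of genes, is the only one that does not hold 0.

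Il1r1 (ENSMUSG00000026072, chr1:40225080-40317257 on GRCm38, protein-coding) varied widely within both genotypes. It had 191, 327 and 365 CPM in Traf6 KO 1 to 3, against 293, 467, 244 and 286 CPM in the libraries labelled Control 1 to 4. The lowest value was in Traf6 KO 1, the library richest in acinar transcripts (43.7% of counts), and the highest in Control 2 (0.388%). Traf6 KO 2, with 34.4%, had 327 CPM, while Control 3, with 0.374%, had 244 CPM. Both groups overlapped. The means were 294 ± 91.6 CPM in Traf6 KO (n = 3) and 322 ± 98.7 CPM in Control (n = 4, SD), and the log2 fold change was -0.13 (95% interval -0.80 to 0.54, SE 0.29, adjusted p = 0.856 by edgeR). Without Traf6 KO 1 it was 0.11, and without Control 2 it was 0.10, so its sign rested on either library. A fit that also held the mean level of the acinar markers gave 0.12. The part of acinar content in the Il1r1 level was not tested beyond that fit.

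Il1rap (ENSMUSG00000022514, chr16:26581704-26730117) encodes the co-receptor that IL-1, IL-33 and IL-36 receptors need to signal. It had 4.62, 5.12 and 5.16 CPM in Traf6 KO 1 to 3, against 3.54, 3.82, 3.28 and 3.68 CPM in the libraries labelled Control 1 to 4. All 3 Traf6 KO libraries lay above all 4 Control libraries, and the spread within each genotype was small. Means were 4.97 ± 0.301 CPM in Traf6 KO (n = 3) and 3.58 ± 0.230 CPM in Control (n = 4, SD). The fold change was 1.39 (log2 0.47 ± 0.18, SE, 95% interval 0.06 to 0.89), with an unadjusted p of 0.0294 and an adjusted p of 0.268 by edgeR, so it did not pass. Permuting the library labels in an exact two-sided test returned p = 0.0571, the smallest that 3 against 4 libraries allow. Leaving out any 1 library gave log2 fold changes of 0.44 to 0.53, although groups that do not overlap cannot turn round in this way. Scaled by plain library totals, which moved the median of all genes by -0.46, the log2 fold change was 0.02, or 0.48 relative to that median. Counts of 51 to 159 per library stood behind these values. An antisense gene, Gm20319, shares 4.86% of its exon bases, and it had 0 counts in every library.

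The ratio of Il1rap to Il1r1 within a library needs no scaling. There were 2.42, 1.56 and 1.41 Il1rap counts per 100 Il1r1 counts in Traf6 KO 1 to 3, against 1.21, 0.819, 1.34 and 1.29 in the libraries labelled Control 1 to 4. The groups did not overlap, though Traf6 KO 3 and Control 3 were close. The mean log2 difference was 0.61, and 0.38 without Traf6 KO 1. The exact two-sided permutation p was 0.0571, the smallest that these group sizes allow, and 0.286 after Benjamini-Hochberg adjustment over 5 such ratios. No ratio could therefore pass the threshold, and this test cannot decide whether a ratio differed between genotypes. The ratios were chosen after values were seen, and Il1rap was the member whose CPM separated the genotypes. How often ratios of other genes to Il1r1 did not overlap was not measured. The ratios to Il1r1 of Tlr2, Tlr3, Tnfrsf11a and Traf6 overlapped between genotypes, with an adjusted exact permutation p of 0.857 for each.

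Il18r1, the ligand-binding chain of the IL-18 receptor and in other tissues a gene of T and natural killer cells, was barely detected. Its counts were 7, 0 and 34 in Traf6 KO 1 to 3, against 1, 7, 9 and 12 in the libraries labelled Control 1 to 4. In Traf6 KO 2 the exact 95% Poisson interval of the 0 count reached 3.69 counts, and 3 counts there equal 0.162 CPM. The 34 counts of Traf6 KO 3 (exact 95% Poisson interval 23.5 to 47.5, counting error only) came to 1.10 CPM, and the next highest library, Traf6 KO 1, had 0.634 CPM from 7 counts (2.81 to 14.4). Traf6 KO 3 also had the highest summed lymphocyte markers, 451 CPM, of which the B-cell gene Ighm alone made up 401 CPM. Without Ighm the sums were 50.5, 22.6 and 50.0 CPM in Traf6 KO 1 to 3, against 9.50, 9.35, 52.3 and 41.9 CPM in the libraries labelled Control 1 to 4, so Traf6 KO 3 did not stand apart. The part of lymphocytes in the Il18r1 counts was not tested. The gene did not enter the test, and with no low-count filter it stood at a log2 fold change of 1.33 ± 0.98 (SE, adjusted p = 0.605 by edgeR).

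**Figure D3:**
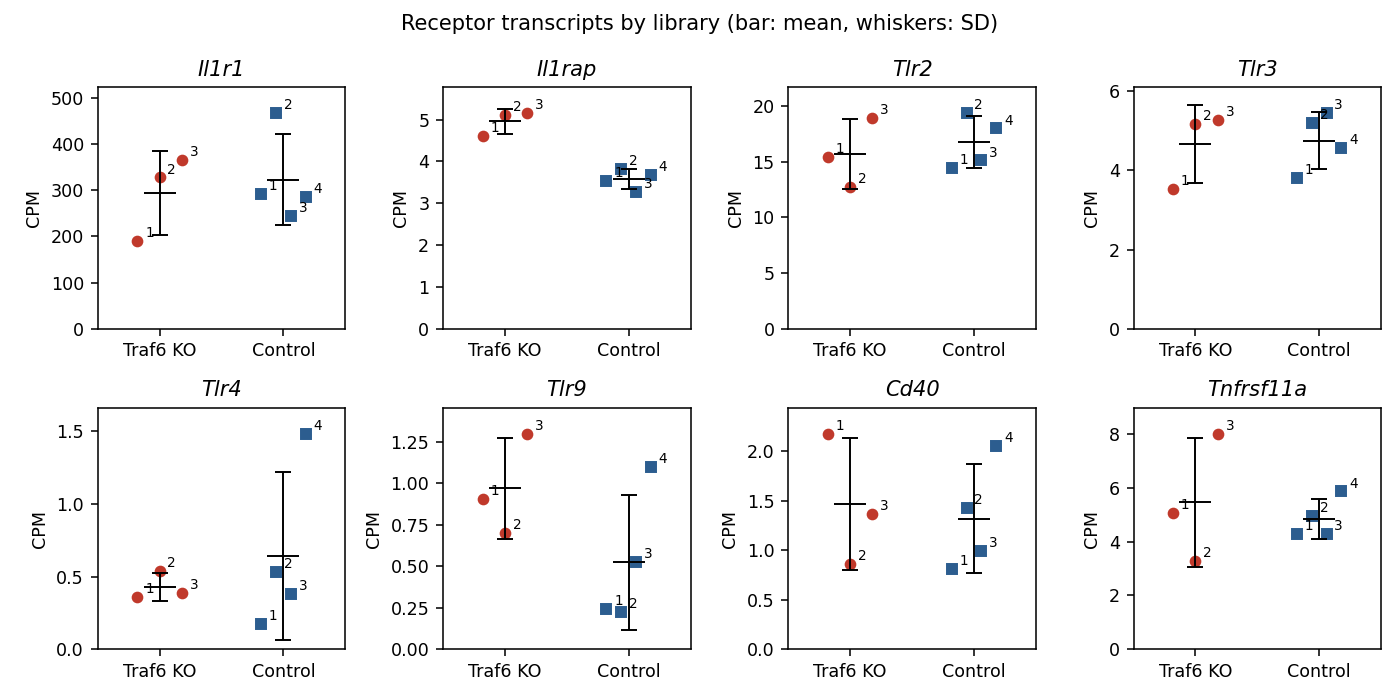
CPM of the 8 tested receptors by library (numbers: replicate; red circles Traf6 KO, left; blue squares Control, right; black bars mean and SD), each on its own axis from 0. Il1rap separates the genotypes, at 4.62 to 5.16 CPM in Traf6 KO against 3.28 to 3.82 CPM in Control, while Tlr4 is highest in the library labelled Control 4.

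Tlr2 and Tlr3 were the steadiest of the Toll-like receptors. Tlr2 (ENSMUSG00000027995, chr3:83836272-83841767) had 15.4, 12.7 and 19.0 CPM in Traf6 KO 1 to 3, against 14.4, 19.4, 15.1 and 18 CPM in the libraries labelled Control 1 to 4. The groups overlapped throughout, and the highest library exceeded the lowest by 1.52-fold. By edgeR the log2 fold change of -0.09 ± 0.17 (SE) had an adjusted p of 0.832 and a 95% interval of -0.48 to 0.31 that leaves out changes beyond 0.715-fold and 1.24-fold. Tlr3 (chr8:45395665-45411080) had 3.53, 5.18 and 5.28 CPM in Traf6 KO 1 to 3, against 3.82, 5.19, 5.45 and 4.56 CPM in the libraries labelled Control 1 to 4. Its 2 lowest values were in Traf6 KO 1 and Control 1, with acinar shares of 43.7% and 15.6%. Traf6 KO 2, with 34.4%, had the middle value (5.18 CPM), and the groups overlapped. On the log2 scale the fold change was -0.02 ± 0.23 (SE, 95% interval -0.55 to 0.50, adjusted p = 0.974 by edgeR).

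Tlr4, the receptor for bacterial lipopolysaccharide, was set apart in a single library. It had 0.362, 0.539 and 0.389 CPM in Traf6 KO 1 to 3, against 0.175, 0.530 and 0.381 CPM in Control 1 to 3, with 1.48 CPM in the library labelled Control 4. The library labelled Control 4 stood above all 6 others, from 42 counts where the others had 4 to 19. The Tlr4 log2 fold change, -0.56 ± 0.71 (SE), missed the threshold (edgeR adjusted p = 0.730, 95% interval -2.20 to 1.08), and without that library the value was 0.24 (adjusted p = 0.854). Per 1000 counts of the 14 myeloid markers there were 1.38, 3.50 and 2.02 Tlr4 counts in Traf6 KO 1 to 3, against 0.694, 2.81, 2.09 and 2.65 in the libraries labelled Control 1 to 4. Per 1000 lymphocyte marker counts there were 4.59, 15.5 and 0.862 in Traf6 KO 1 to 3, against 14.2, 42.1, 5.02 and 22.3 in the libraries labelled Control 1 to 4. On both scales the library labelled Control 4 lay inside the range of the others. On the lymphocyte scale that range was wide, from 0.862 to 42.1. Its low end was Traf6 KO 3, where Ighm made up 88.9% of the lymphocyte sum. A fit that held the mean myeloid level gave Tlr4 a log2 fold change of 0.13, and the part of either cell type in the Tlr4 level was not tested beyond these values.

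Tlr9, an endosomal sensor of unmethylated CpG DNA, lay on the whole higher in Traf6 KO, without passing. It had 0.906, 0.701 and 1.3 CPM in Traf6 KO 1 to 3, against 0.245, 0.223 and 0.527 CPM in Control 1 to 3, with 1.10 CPM in the library labelled Control 4. Control 1 to 3 lay below every Traf6 KO library, and only the library labelled Control 4 overlapped. The log2 fold change was 0.91 ± 0.60 (SE, 95% interval -0.48 to 2.30, edgeR adjusted p = 0.485). It was 1.55 without the library labelled Control 4 (adjusted p = 0.345), 0.61 without Traf6 KO 3 and 1.39 with the myeloid covariate (adjusted p = 0.329). Counts were 7 to 40 per library. Per 1000 myeloid marker counts there were 3.44, 4.55 and 6.74 Tlr9 counts in Traf6 KO 1 to 3, against 0.971, 1.18, 2.89 and 1.96 in the libraries labelled Control 1 to 4, which did not overlap and were compared after their values were seen. On CPM 14.3% of all tested genes did not overlap, and no such share was taken on this scale. Tlr2, Tlr4 and Cd40 overlapped on it. In Control 1 the marker C1qa alone made up 151 of the 253 CPM of the myeloid sum. Per 1000 lymphocyte marker counts the order was otherwise, with 11.5, 20.1 and 2.87 in Traf6 KO 1 to 3, against 19.9, 17.7, 6.95 and 16.4 in the libraries labelled Control 1 to 4. The low value of Traf6 KO 3 came with Ighm, which made up 88.9% of its lymphocyte sum. Without Ighm the values were 17.9, 31.0 and 25.9 in Traf6 KO 1 to 3, against 25.8, 23.9, 10.1 and 26.2 in the libraries labelled Control 1 to 4, which overlapped. Which cells carried Tlr9 was not measured.

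Tlr5, the flagellin receptor, stayed near the limit of detection and did not enter the test. It had 0, 2 and 8 counts in Traf6 KO 1 to 3, against 1, 1, 9 and 6 in the 4 libraries labelled Control. The exact 95% Poisson interval of the 0 in Traf6 KO 1 reached 3.69 counts. In that library 3 counts equal 0.272 CPM, which is above the 0.264 CPM of the highest library. With no low-count filter its log2 fold change was 0.04 ± 0.98 (SE), at an edgeR adjusted p of 0.991.

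Over the whole family, 8 of the 12 Toll-like receptor genes in the table had their highest level in the library labelled Control 4, which was the highest library in 17% of all tested genes. These 8 were Tlr4 and the genes outside the member list, Tlr1, Tlr6, Tlr7, Tlr8, Tlr11, Tlr12 and Tlr13. This grouping was made after the values were seen. The 17% covers only genes that passed the low-count filter, which Tlr5, Tlr8 and Tlr11 did not. Tlr12, in mice a receptor for profilin of parasites, had 4.17 CPM there and at most 1.36 CPM in the other libraries. Tlr13, which senses bacterial ribosomal RNA in mice, had 2.19 CPM there and at most 0.837 CPM elsewhere. Tlr2, Tlr3, Tlr5 and Tlr9 had their highest library elsewhere. The summed myeloid markers were highest in that library too, at 559.6 CPM against at most 263 CPM elsewhere. Control 1, with the third highest sum (253 CPM), was the lowest library for Tlr4, Tlr6, Tlr7, Tlr8 and Tlr12 and had 0 counts of Tlr11. The marker C1qa alone made up 151 CPM of that sum. By the mean log2 level of the same markers Control 1 (2.93) lay below Traf6 KO 1 (3.26), Traf6 KO 3 (3.12) and Control 2 (3.00). The part of myeloid cells in these levels was not tested.

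**Figure D4:**
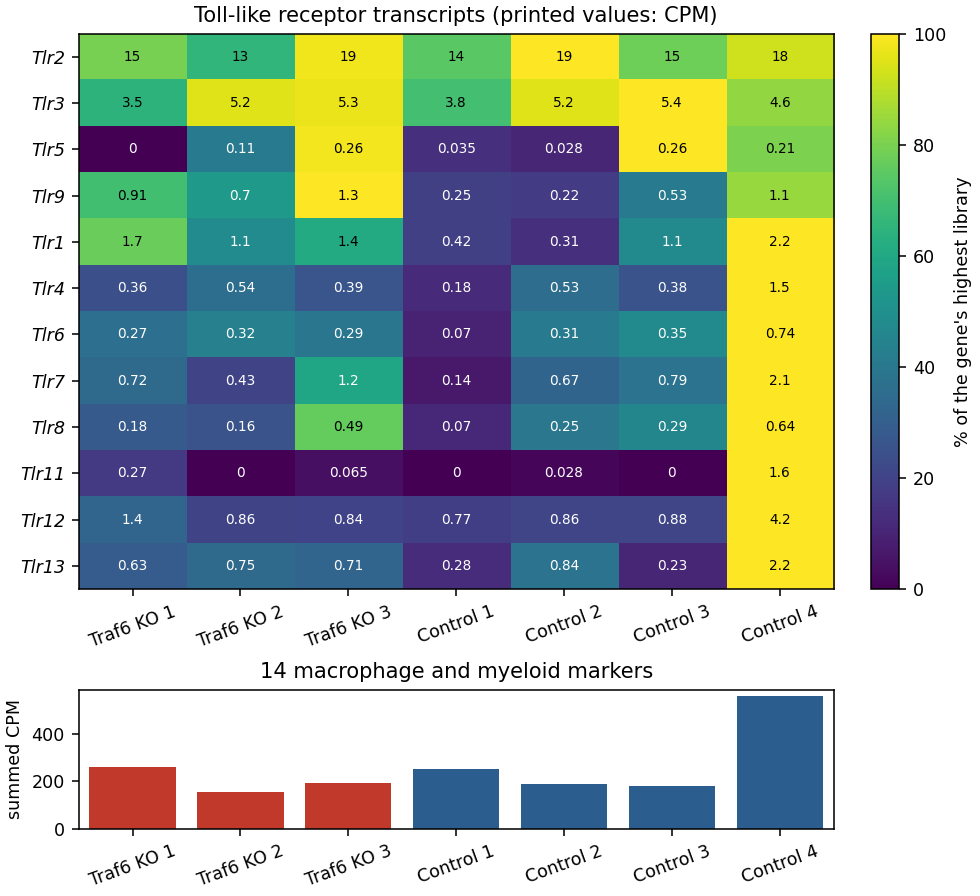
Upper panel, the 12 Toll-like receptor genes in the 7 libraries, coloured by percent of each gene's highest library, with CPM printed in the cells. Lower panel, summed CPM of 14 macrophage and myeloid markers by library (red Traf6 KO, blue Control). The column of the library labelled Control 4 holds the highest value of 8 genes and the tallest bar, 559.6 CPM.

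Cd40, a receptor of antigen-presenting cells that T cells engage, had 2.17, 0.863 and 1.36 CPM in Traf6 KO 1 to 3, against 0.806, 1.42, 0.996 and 2.05 CPM in the libraries labelled Control 1 to 4. The highest value was in Traf6 KO 1 and the next in the library labelled Control 4, the libraries with the 2 highest myeloid sums. The lowest was in Control 1, whose myeloid sum (253 CPM) was close to that of Traf6 KO 1 (263 CPM), and the groups overlapped. By the mean log2 level of the same markers Control 1 (2.93) lay below Traf6 KO 1 (3.26). Per 1000 myeloid marker counts Cd40 ranged from 5.60 to 8.26 in Traf6 KO and from 3.19 to 7.54 in Control. The log2 fold change was 0.13 ± 0.45 (SE, 95% interval -0.91 to 1.18, edgeR adjusted p = 0.911), and without Traf6 KO 1 it was -0.23. Tnfrsf11a, which encodes RANK, the receptor of the osteoclast factor RANKL, had 5.07, 3.29 and 8.01 CPM in Traf6 KO 1 to 3, against 4.28, 4.97, 4.28 and 5.87 CPM in the libraries labelled Control 1 to 4. Traf6 KO held both its highest and its lowest library. The log2 fold change was 0.18 ± 0.31 (SE, 95% interval -0.53 to 0.89, edgeR adjusted p = 0.807), and without Traf6 KO 3 it was -0.22. Under plain library totals the log2 fold changes of Cd40 and Tnfrsf11a were -0.45 and -0.15, which relative to the shifted median of all genes were 0.01 and 0.30.

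The column names give each library a letter, Q, R or S, whose meaning the labels do not state. The S-tagged libraries are Traf6 KO 3 and the library labelled Control 4, a pair that allows no test. With Traf6 KO 3 named before the library labelled Control 4, Il1rap was at 5.16 against 3.68 CPM, Tlr9 at 1.3 against 1.10 CPM, Tnfrsf11a at 8.01 against 5.87 CPM and Tlr4 at 0.389 against 1.48 CPM. Likewise Il1r1 was at 365 against 286 CPM, Tlr2 at 19.0 against 18 CPM, Tlr3 at 5.28 against 4.56 CPM and Cd40 at 1.36 against 2.05 CPM. When the fit was limited to letters Q and R (2 Traf6 KO, 3 Control), the log2 fold change was 0.46 for Il1rap (edgeR adjusted p = 0.287), 1.24 for Tlr9 (0.269), -0.37 for Il1r1, -0.22 for Tlr2, -0.14 for Tlr3, 0.46 for Cd40, -0.12 for Tnfrsf11a and 0.33 for Tlr4. Of the 8 members, only Il1rap and Tlr9 were higher in Traf6 KO in both sets, and for the other 6 the S pair and the fit pointed opposite ways. A pair of single libraries has no replicate check.

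Genes whose pattern over the 7 libraries was most like that of each member were found by the root mean square difference between z-scored log2 CPM, among 12563 named genes with a mean CPM of at least 1. For Il1r1 these were Hs6st1 (0.218) and Arvcf (0.235), for Il1rap Ythdf3 (0.191) and Tbc1d30 (0.207), for Tlr2 Herc6 (0.138) and Mta1 (0.204) and for Tlr3 Spin4 (0.194) and Atr (0.198). Tlr4 lay nearest to Sppl3 (0.216) and Lair1 (0.232). Tlr9 lay nearest to Xdh (0.193) and Ikzf1 (0.212). Cd40 lay nearest to Serpinb9 (0.241) and Nr1h2 (0.248), and Tnfrsf11a to Trabd2b (0.141) and Alas1 (0.161). All values share the same 7 libraries, and likeness over so few libraries is a description only.

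The other genes of the pathway did not pass either. Of 39 listed genes, 24 were tested, 0 were called in either direction, 0 had an unadjusted p under 0.05 by edgeR, and in 0 of the 24 did all values of one genotype exceed those of the other. Over all genes tested, 16% were at such a p and 14.3% did not overlap. Log2 fold changes were above 0 in 8 and below 0 in 16, with a median of -0.15, and over all genes above 0 in 8209 and below 0 in 7994, with a median of 0.01. DESeq2 and limma-voom, with and without quality weights, called 0 of them too, beside the 4.59%, 0% and 6.46% of all genes given above. Among 5 tested Toll-like receptors outside the member list, the log2 fold changes of Tlr12, Tlr1, Tlr6 and Tlr13 were -0.73 ± 0.69, 0.46 ± 0.67, -0.30 ± 0.69 and -0.32 ± 0.78 (SE, edgeR adjusted p = 0.632 to 0.869). In the IL-1 receptor family, Il1r2, the decoy receptor that binds IL-1 without signalling, had 3.44, 2.64 and 1.85 CPM in Traf6 KO 1 to 3, against 4.56, 3.35, 5.51 and 1.63 CPM in the libraries labelled Control 1 to 4 (log2 fold change -0.52 ± 0.43, SE, edgeR adjusted p = 0.578). Sigirr, an inhibitory member of the family, had 9.69 to 12.3 CPM in Traf6 KO and 9.29 to 14 CPM in Control (-0.13 ± 0.17). Il1rl2, the IL-36 receptor, was at 0.054 to 0.906 CPM in Traf6 KO and 0.088 to 0.363 CPM in Control (1.51 ± 0.81, adjusted p = 0.392).

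Accessory proteins of Toll-like receptors gave 10 tested genes, 4 above 0 and 6 below. Unc93b1, which escorts nucleic-acid-sensing Toll-like receptors out of the endoplasmic reticulum, had 35.3, 25.3 and 35.2 CPM in Traf6 KO 1 to 3, against 32.4, 35.6 and 36.1 CPM in Control 1 to 3, with 68.3 CPM in the library labelled Control 4. Its log2 fold change of -0.43 ± 0.28 (SE) had an edgeR adjusted p of 0.473. Cd14, which hands lipopolysaccharide to TLR4, the scavenger receptor gene Cd36 and Ly86, a partner of the TLR4-like Cd180, stood at 0.47 ± 0.36, 0.50 ± 0.45 and -0.49 ± 0.49. Of 15 ligands and soluble antagonists, 6 were tested. Il18bp, the soluble antagonist of IL-18, had 2.17, 3.77 and 6.13 CPM in Traf6 KO 1 to 3, against 5.26, 8.20, 5.33 and 7.14 CPM in the libraries labelled Control 1 to 4 (-0.66 ± 0.35, adjusted p = 0.386), and Il18 had a log2 fold change of -0.74 ± 0.43 (adjusted p = 0.427). Il1b, a ligand of Il1r1, had 0.362 and 0.593 CPM in Traf6 KO 1 and 2 but 11.4 CPM in Traf6 KO 3, against 1.09 to 1.73 CPM in Control (1.62 ± 0.99, adjusted p = 0.452). Tnfsf11, the gene of the RANK ligand RANKL, fell under the low-count filter, with 5, 2 and 14 counts in Traf6 KO 1 to 3, against 0 in Control 1 to 3 and 3 counts in the library labelled Control 4, and is named here after its values were seen. Hmgb1, a nuclear protein that acts as a danger signal when released, was at 143 to 171 CPM in Traf6 KO and 156 to 179.9 CPM in Control (-0.09 ± 0.11).

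**Figure D5:**
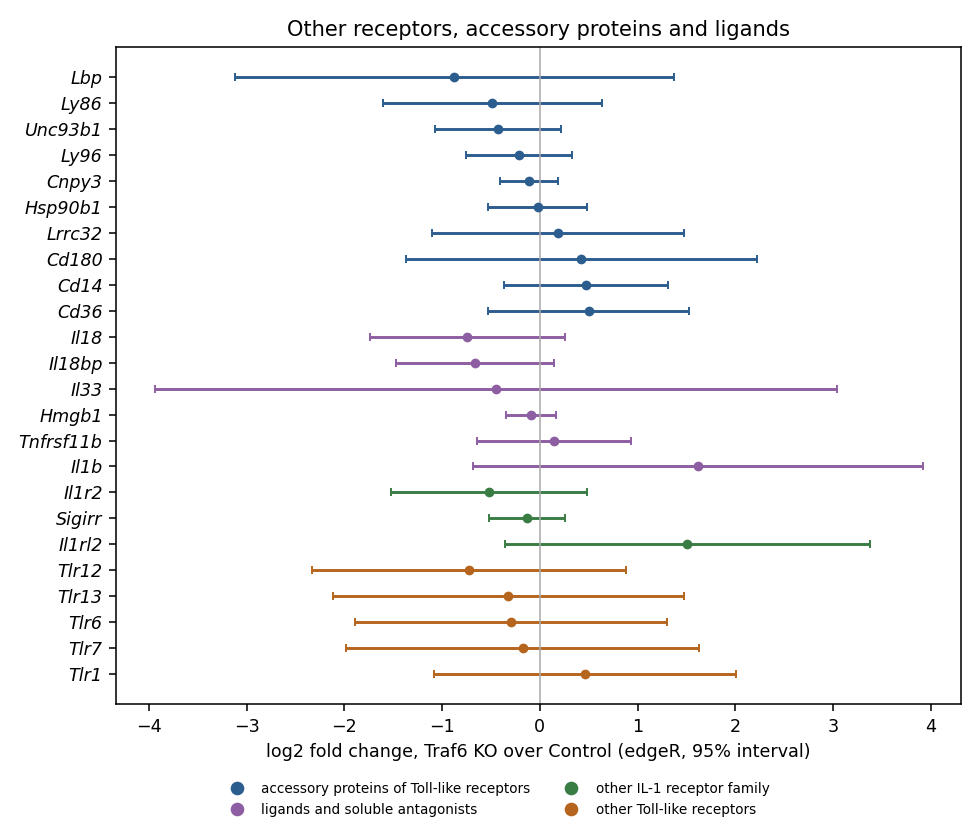
Log2 fold change of Traf6 KO over Control by edgeR with its 95% interval for the 24 tested genes of the pathway outside the member list, coloured by group (accessory proteins, ligands and soluble antagonists, other IL-1 receptor family, other Toll-like receptors). Every interval holds 0.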

How the data were processed

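Counts came from 1 table with 7 libraries of isolated islets. Its values, as the authors deposited them, are whole-number counts by gene that were not normalized, in 1 column per library. The submitters' processing notes list FastQC, STAR 2.6.1b, RSEM 1.3.1 and GRCm38 without saying what each did. The values may therefore be rounded RSEM estimates, and, with no strand setting stated, reads of genes that overlap on opposite strands cannot be told apart. Of 55487 rows, 55227 matched GENCODE M21 on GRCm38, from which coordinates and exon lengths were taken.

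Columns were matched to samples by the library descriptions and groups to the genotype in the labels. Each library was taken as 1 mouse; nothing in the labels states separate mice, so p-values may measure only the spread between these samples. All 21 pairs of libraries differed by more than sampling noise (chi-square per gene of at least 21.8). The fit was edgeR 4.0.16 in R 4.3.3 (quasi-likelihood test, TMM, genotype as the only term, filterByExpr at its defaults of count 10 and total 15). P-values were adjusted over all tested genes by Benjamini-Hochberg, and 0.05 was the threshold. CPM is the count over the product of the counts in tested genes and the TMM factor, which ran from 0.5 to 1.353. SE and 95% intervals of fold changes were derived from the F statistic. Exact two-sided permutation tests ran over the 35 splits of log2(CPM + 0.5), or of log2 ratios of counts, with p as the smaller tail doubled, a convention settled after values were seen. List means used as covariates are means of log2(CPM + 1). The script was tested on simulated data.

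Named genes are the members, Traf6, up to 4 genes per pathway list with the smallest p, the most abundant markers and the 2 genes nearest to each tested member in z-scored log2 CPM. The members and lists were chosen with earlier results of these data known. The ratios, the values per marker count, the count of Toll-like receptors by highest library and Gm38070 were chosen after values were seen. Alternatives were other scalings (DESeq2 1.42.0 size factors, upper quartile, plain totals), DESeq2 and limma 3.58.1 tests, other filters, the replicate block, the tag letter, acinar and myeloid covariates and leaving out each library.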

Additional observations from a re-analysis of the deposited data

Results flagged for a closer look

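Of 64 values checked in the 4 libraries labelled Control, 9 had 1 library apart from the other 3 by more than the 95% limit for a gap over the range; chance flags about 1 in 20 groups, and these values are not independent. The library labelled Control 4 was apart in 6 of them. It had 1.59 CPM of Tlr11 against 0 to 0.0279 CPM in Control 1 to 3, 4.17 CPM of Tlr12 against 0.771 to 0.879 CPM, and 68.3 CPM of Unc93b1 against 32.4 to 36.1 CPM. It had 9.51 CPM of Ly86 against 2.71 to 3.72 CPM, 5.41 CPM of Il33, an IL-1 family cytokine, against 0 to 0.195 CPM, and 0.106 CPM of Tnfsf11, the gene of RANKL, against 0 in the others. Summed myeloid markers were also highest in this library, at 559.6 CPM, and their part in these values was not tested. Il1rl1, the IL-33 receptor, had 0.0293 CPM in Control 3 and 0 in the other libraries labelled Control, a difference of 1 count. Control 1 was apart in summed acinar markers, at 164108 CPM against 2976 to 20325 CPM, and in summed stellate and fibroblast markers, at 207 CPM against 124 to 132 CPM.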

How the results depend on the processing

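Under 21 alternatives, 0 receptors and 0 of the other pathway genes were called. Over all genes, edgeR called 0, the DESeq2 Wald test 744 (704 with its default alpha, run first; the alpha of 0.05 was set after that count was seen), limma-voom with quality weights 1046, the acinar covariate 3, and leaving out 1 library 0 to 701, the highest without Traf6 KO 3. The labels do not pair libraries by number, and the deviations of same-numbered libraries correlated at 0.56, -0.13 and 0.44. The fit with the replicate block left out the library labelled Control 4, which has no Traf6 KO library of its number. It called 5 genes, and the log2 fold change of Tlr4, the scale of all values below, was 0.27. Leaving out that library alone, with no block, put Tlr4 at 0.24. Il1rap, Tlr9 and Traf6 had 1 sign throughout, with adjusted p of 0.0707 to 0.981 for Il1rap and 0.241 to 0.713 for Tlr9. Signs turned for the others, none past the threshold. With the acinar covariate Tlr2 was at 0.093, Tlr3 at 0.23 and Il1r1 at 0.12. Tlr3 was at 0.011 with DESeq2 and 0.021 with limma-voom, and with quality weights Tlr3 was at 0.017, Tlr4 at 0.19, Cd40 at -0.18 and Tnfrsf11a at -0.25. With letters Q and R only, Tlr4 was at 0.33 and Tnfrsf11a at -0.12. The myeloid covariate put Tlr4 at 0.13, and plain totals put Cd40 at -0.45 and Tnfrsf11a at -0.15. Leaving out 1 library gave -0.26 to 0.050 for Tlr2, -0.12 to 0.14 for Tlr3, -0.84 to 0.24 for Tlr4, -0.32 to 0.11 for Il1r1, -0.23 to 0.42 for Cd40 and -0.22 to 0.45 for Tnfrsf11a. For log2 ratios to Il1r1 it gave -0.24 to 0.29 (Tlr2), -0.043 to 0.29 (Tlr3), -0.050 to 0.65 (Tnfrsf11a), 0.38 to 0.77 (Il1rap, lowest without Traf6 KO 1) and -0.49 to -0.0067 (Traf6). The cause was not tested. Counts under 60 per library limit Tlr4, Tlr9 and Cd40, and Tlr5 and Il18r1 were too low for the test.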

Other observations

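Gm38070, a gene model with no assigned class, lies inside an intron of Il1r1 on the same strand (chr1:40238020-40244499 on GRCm38) and shares 0 exon bases with it. It had 488, 1478 and 2681 counts in Traf6 KO 1 to 3, against 1890, 3782, 1480 and 2311 in the 4 labelled Control. This was 23.2%, 24.3% and 23.8% of the Il1r1 counts in Traf6 KO 1 to 3, against 22.6%, 22.6%, 17.8% and 28.6% in the libraries labelled Control 1 to 4. Gm38070 had a log2 fold change of -0.08 ± 0.33 (SE, adjusted p = 0.929 by edgeR). Whether these reads belong to Il1r1 pre-mRNA, to another end of Il1r1 or to a separate transcript was not tested, and they are not part of the Il1r1 values in the report.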
